A study of Homo sapiens with 3 samples.

Results

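The solute carrier (SLC) genes are the large set of genes for membrane proteins that move sugars, amino acids, nucleotides, metals, ions and vitamins across the plasma membrane and the membranes of organelles. Members were the protein-coding genes with an SLC symbol that both blocks of the deposited table list, 1 block for each deprived library set beside the control, apart from SLC38A1, SLC1A5, SLC7A5, SLC38A10 and SLC7A1. The choice gave 41 genes of 5928 listed in both blocks, out of 46 listed SLC genes.

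The libraries came from 95D, an established human lung cancer line labelled wild type, and there were 3 of them. Cells had been held for 48 h in control conditions, without glucose or without glutamine, with 1 library each. Per the labels' protocols, cells were first seeded in complete medium, and the deprivation media were glucose-free or glutamine-free DMEM with dialyzed serum. The sources used here do not say which medium the control had during those 48 h, or whether its serum was dialyzed. All 3 libraries are described as RNA captured from lysate by biotinylated DAMER, a long non-coding RNA made in vitro, whereas the sample titles name RNA sequencing, so whether the control is a capture cannot be settled from the labels. The protocols give no count of separate cultures, and no library without the DAMER bait was analysed here.

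SLC proteins carry out secondary active transport, facilitated diffusion or exchange, and are grouped in numbered families by sequence. Sugar carriers such as the SLC2 family bring in glucose. Amino acid carriers of the SLC1, SLC7 and SLC38 families supply glutamine, cystine and essential amino acids, and the SLC3 proteins are the heavy chains that bring SLC7 light chains to the membrane. The SLC25 family sits in the inner mitochondrial membrane and exchanges ATP, phosphate and cofactors with the cytosol. ATF4, a transcription factor that cells make when amino acids run short, is known to raise transcription of several amino acid carriers, SLC7A11 among them.

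The values of SLC35F1 and SLC35F2, which are among the 3 highest of the members, could not be assigned to SLC RNA alone. The table gives no coordinates, so a region was called shared where the same values stood in the same block under another gene that overlaps it in GENCODE release 29 (GRCh38). The region of SLC35F1, a carrier-like protein of uncertain substrate, carried the highest value of all members and stood also under RPL29P4 (AL450405.1 in that release), a processed pseudogene of ribosomal protein gene RPL29 in an SLC35F1 intron, on the same strand. The larger region of SLC35F2, a related gene, stood also under AP001024.1, a processed pseudogene that overlaps an SLC35F2 exon on the opposite strand and is most like RPLP2, another ribosomal protein gene. Stretches of both pseudogenes are printed beside the matching coding exon of the parent, from the GENCODE release 29 transcripts, with the differing bases in capitals. Each stretch is the one with the most differing bases among gapless coding windows of its length. Whether reads of pseudogene and parent can be told apart was not tested.
AL450405.1, chr6:117999211-117999300, plus strand: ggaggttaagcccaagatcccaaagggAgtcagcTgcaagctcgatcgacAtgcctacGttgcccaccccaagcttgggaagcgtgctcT
RPL29, chr3:51993903-51993992, minus strand: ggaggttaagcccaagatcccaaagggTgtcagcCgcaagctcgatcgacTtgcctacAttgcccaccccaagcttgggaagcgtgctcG
AP001024.1, chr11:107908436-107908525, plus strand: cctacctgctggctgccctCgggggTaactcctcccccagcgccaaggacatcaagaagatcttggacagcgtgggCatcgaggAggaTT
RPLP2, chr11:810251-810340, plus strand: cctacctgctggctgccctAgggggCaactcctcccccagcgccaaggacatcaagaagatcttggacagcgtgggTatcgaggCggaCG
In these windows of 90 bases the first pair differed at 5 bases and the second at 6. Over the whole pseudogenes, RPL29P4 matched RPL29 at 97.3% of 480 aligned bases, and AP001024.1 matched RPLP2 at 93.4% of 348.

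The SLC genes were a small part of the control library. RPM values here are reads relative to the library total, summed over a gene's listed regions, and fragments are the counts recovered from the steps between values. The control count was not whole for 16 of the 41 members. What a part count stands for is not given, and the intervals treat all of them as counts. The 41 genes had 86 regions and together 901 RPM (0.0901% of the library), from 3365 fragments. Single genes ran from 4.89 RPM (SLC30A5) to 84.9 RPM (SLC35F1) with a median of 15.1 RPM, and the median of all 4507 listed protein-coding genes was 15.7 RPM. No member was built on fewer than 18 fragments, and 20 of the 41 rested on a single region. Of the rows that name a gene, all but 6 of the glucose block and all but 1 of the other block had at least 9.5 control fragments, so the table holds almost only what was seen in the control, and a member could hardly be listed without being higher there.

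The libraries differed in depth and makeup, which bears on every comparison. The control had a recovered total of 3781862 fragments, against 18775818 without glucose and 18301607 without glutamine. ATF4 stood at 237 RPM in the control, at 998517 RPM without glucose and at 998557 RPM without glutamine. Outside ATF4 and its pseudogenes the deprived libraries had 12934 and 14449 fragments of their totals, of which listed regions held 1176.5 and 158.5. A count of 0 fragments allows up to 3 fragments, which is 0.793 RPM for the control, 0.160 RPM for the library without glucose and 0.164 RPM for that without glutamine. Of markers checked against the label, VIM and ZEB1 of 6 mesenchymal and KRT8 of 7 epithelial genes were listed (82.9 and 6.48 RPM in the control), none of 6 lung lineage markers was, and of 14 leukocyte, endothelial, fibroblast and erythroid markers only CSF1R was (10.3 RPM). None of the listed markers had a fragment in a deprived library.

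Few SLC genes were listed for the size of the family. Of the protein-coding genes in GENCODE release 29, 377 have an SLC symbol by the gene names used here, which can differ from those of that release. Of these, 46 (12.2%) had a row in the tables used here, against 4507 of all 19951 protein-coding genes (22.6%). The listed genes fell in 21 of 51 families. Substrate classes were given to whole families by family number, so a class can hold genes that carry other substrates or none. By class, the nucleotide sugar (SLC35), metal and amino acid classes were listed most often, at 7 of 31 genes (22.6%), 7 of 32 (21.9%) and 13 of 66 (19.7%). Mitochondrial carriers were listed at 6 of 48 (12.5%) and sugar carriers at 2 of 36 (5.56%), with no row for any of the 15 genes of the SLC2 glucose transporter family. None of 54 organic anion and cation carriers and none of 7 nucleoside carriers had a row. The sources used here do not say how rows were chosen for the table, so a gene without a row is not thereby shown to be absent from the RNA.

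**Figure D1:**
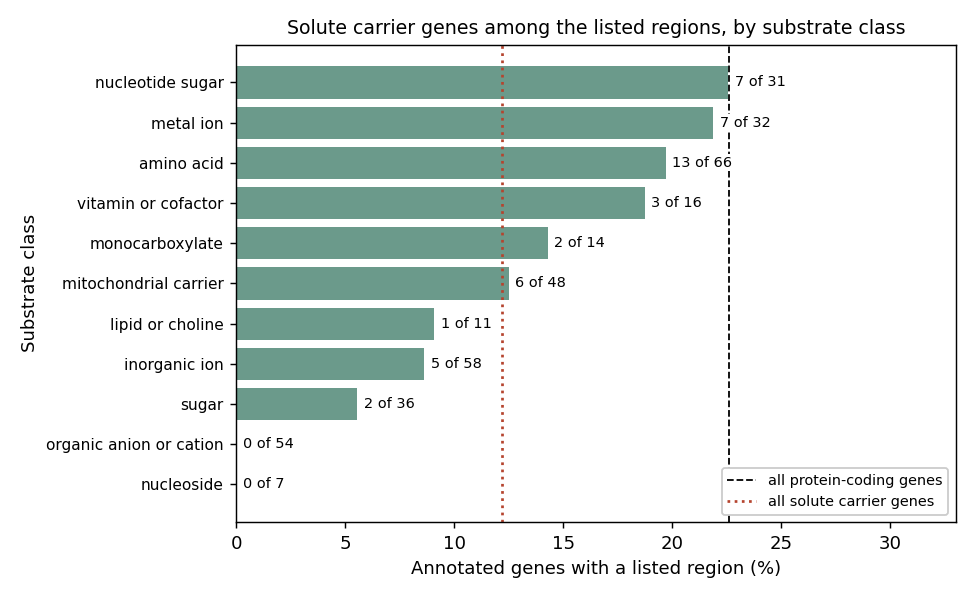
Share of annotated SLC genes with a listed region, by substrate class. Bars give the percent, with the counts beside them; the dashed line is the share of all protein-coding genes (22.6%) and the dotted line that of all SLC genes (12.2%). Nucleotide sugar, metal and amino acid carriers lie nearest the dashed line, and sugar carriers (2 of 36) well below both.

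The question of each comparison was which of these RNAs differed between a deprived library and the control. On library totals every member was lower in both deprived libraries, as was nearly every other listed gene. In the glucose-deficient library 40 of 41 members had 0 fragments, and in the glutamine-deficient library 40 of 41, with 39 at 0 in both. Ratios were taken on log2(RPM + 1), a scale that makes differences of low genes look smaller. The ratio was past 2-fold lower for 41 of 41 members in the glucose-deficient library, where 99.9% of all tested genes were called lower. The glutamine-deficient library gave 41 of 41 as well, again with 99.9% of all tested genes lower. No member was 2-fold higher in either, where 0.118% and 0.0675% of all tested genes were. The members' median log2 ratios were −3.94 and −3.94, and those of all tested genes −3.92 and −3.93. Both comparisons use the same control library. With 1 library per condition there is no replicate check and no p-value, and every interval given is a 95% interval of counting error only, which PCR duplicates can make too narrow. RPM is a share of the library total, of which ATF4 made up 0.0237% in the control, 99.85% without glucose and 99.86% without glutamine. So large a share for ATF4 lowers the RPM of every other gene, so the lower calls do not by themselves show less SLC RNA. Whether cell number, RNA per cell or the RNA captured differed was not tested, and these bulk libraries cannot tell them apart.

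A single fragment in each deprived library was all that the members had there. The deposited values also carry an offset of 0.5 fragment per region, which stays in RPM folds but not in the intervals. In the glucose-deficient library it fell to SLC35B4, which carries UDP-sugars into the Golgi. SLC35B4 had 79 control fragments (21.3 RPM, 3 regions), 1 without glucose and 0 without glutamine, and it was 160-fold lower in the glucose-deficient library by RPM with the offset, or 392-fold by fragments without it (68.4 to 15685). In the glutamine-deficient library the fragment fell to SLC25A39, the mitochondrial glutathione carrier. SLC25A39 had 51 control fragments (13.6 RPM), 0 without glucose and 1 without glutamine, where it was 166-fold lower with the offset, or 247-fold by fragments without it (42.3 to 9937). One fragment is under the limit that a count of 0 allows, so neither gene stands apart from the 39 with none. For the members at 0, control RPM over the limit of 3 fragments gave bounds that ran from at least 30.6-fold to at least 531-fold lower without glucose, and from at least 29.8-fold to at least 518-fold lower without glutamine. These bounds follow the control level and leave out its counting error.

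The share of members with any fragment was set beside that of all listed genes. In the glucose-deficient library 1 of 41 members had a fragment, where 9.04% of all genes outside the ATF4 family had one. In the glutamine-deficient library 1 of 41 had one, where 0.726% of all genes had. Per 1000 control fragments the members kept 0.297 fragments in both libraries (0.00752 to 1.66). All listed regions outside the ATF4 family kept 1.37 (1.29 to 1.45) without glucose and 0.190 (0.162 to 0.223) without glutamine. The members' interval holds both values, so neither departure is larger than the counting error. The 5 SLC genes left out of the set had 1 fragment in the glucose-deficient library (SLC7A1) and 2 in the glutamine-deficient library (SLC38A10).

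Outside ATF4, single members could not be compared between the deprived libraries and the control or each other. With RPM taken over reads outside ATF4 and its pseudogenes, 0 fragments allow up to 232 RPM without glucose and 208 RPM without glutamine. Both limits lie above the highest control level of any member, 84.9 RPM. On that scale the interval of the ratio to the control included 1 for all 41 members in both libraries, so no difference of a single member was detectable. Summed, the members held 3365 of the control's 3780903 fragments outside ATF4 and its pseudogenes. They held 1 of 12934 without glucose and 1 of 14449 without glutamine, a smaller share in both. All listed regions also held a smaller share there. The table holds almost only what was seen in the control, so this was not read as a result about the members. Between the glucose-deficient and glutamine-deficient libraries none of the 41 members reached the 1 RPM needed for a call. In that comparison 16 genes of the whole table did, of which 18.8% were 2-fold higher in the glucose-deficient library and 0% lower.

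Calls on the scale without ATF4 followed the offset in the deposited values. That scale magnifies the 0.5 fragment added to each region in the deprived libraries. As deposited, 38 members were then 2-fold higher and 1 lower without glucose, where 87.8% of all genes were higher and 1.67% lower. Without glutamine 38 members were higher and 1 lower, where 84% of all genes were higher and 2.43% lower. Leaving out mitochondrial and the most abundant genes as well gave 38 higher and 1 lower without glucose (all genes 87.3% and 1.67%) and 37 higher and 1 lower without glutamine (all genes 82.4% and 2.61%). With the offset taken off and only ATF4 and its pseudogenes left out, 40 members were lower and 1, with its single fragment, was higher in each deprived library. Of all genes 92% were then lower and 4.23% higher without glucose, and 99.4% lower and 0.388% higher without glutamine. Between the deprived libraries 1 member was lower in the library without glucose and 0 higher on either scale with the offset, where 0.169% of all genes were lower and 4.52% higher. With the offset off 1 member was lower and 1 higher, where 4.3% of tested genes were lower and 92.5% higher. With only ATF4 and its pseudogenes left out, none of the calls against the control has a counting interval that excludes a ratio of 1.

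**Figure D2:**
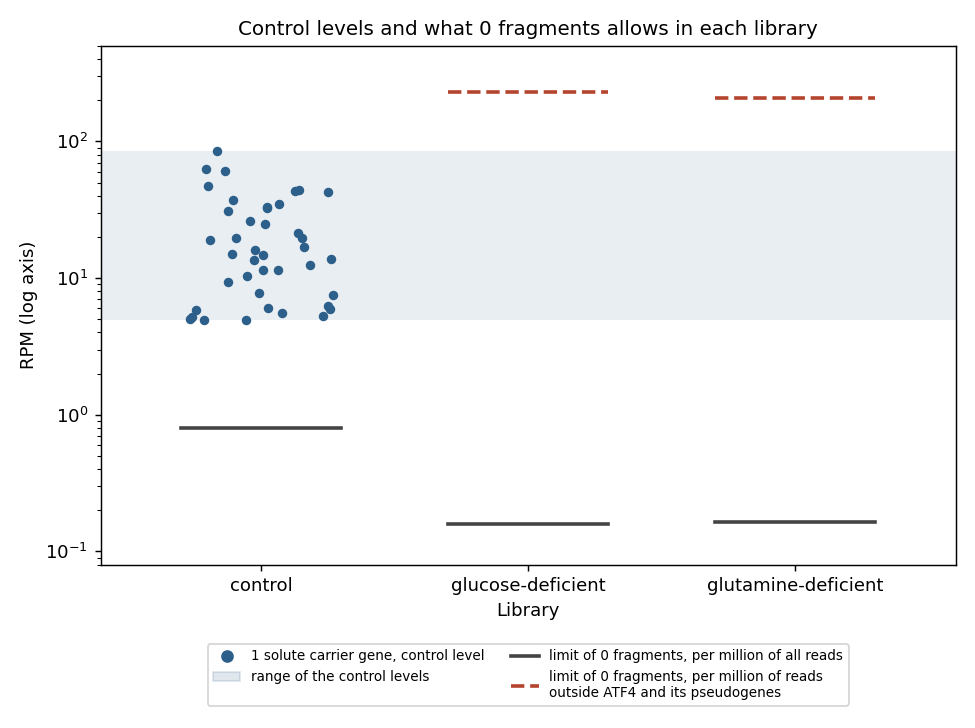
Control level of each of the 41 SLC genes (points, spread sideways only for sight) and the level that 0 fragments allows in each library, in RPM on a log axis. Solid lines are limits with RPM over all reads (0.793, 0.160 and 0.164 RPM), below every point; dashed lines are limits with RPM over reads outside ATF4 and its pseudogenes (232 and 208 RPM), above the shaded range of control levels.

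Amino acid carriers had 8 members and 187 RPM in the control, 20.7% of the members' sum, and none had a fragment in a deprived library. SLC3A2, the heavy chain of the SLC7A5 and SLC7A11 exchangers, led with 46.9 RPM (39.8 to 53.8) from 4 regions, none shared (chr11:62856102-62888875, plus strand). SLC38A2, a sodium-coupled carrier of glutamine and other neutral amino acids, had 42.7 RPM (36.01 to 49.4) from 3 regions. One region of SLC38A2, at 10.2 RPM, was also listed under its antisense gene SLC38A2-AS1, which leaves 32.5 RPM of its own. SLC7A11, the cystine and glutamate exchanger, had 37.3 RPM (30.9 to 43.4) from 4 regions, and 43.3% of it was shared with SLC7A11-AS1 on the opposite strand. Whether counting used strand is not given, so reads of these 2 carriers and of their antisense genes cannot be told apart in the shared regions.

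By summed RPM the other amino acid carriers were lower. Per kb of merged exons SLC1A3 had 4.18 RPM, or 3.23 with its equal rows counted once, and SLC7A11 had 3.87. SLC1A3, a glutamate and aspartate transporter, had 26.2 RPM (20.7 to 31.1) from 5 rows of 3.31 to 6.08 RPM, of which 2 held equal values. SLC6A8, the creatine transporter, had 12.4 RPM in 1 region, SLC6A15, a transporter of neutral amino acids, 10.3 RPM in 2, and SLC36A4, an amino acid carrier of the SLC36 family, 6.08 RPM in 1. SLC3A1, the heavy chain of the renal cystine carrier, had 5.02 RPM in a region that also stood under PREPL, a peptidase-like gene on the opposite strand, and under AC013717.1, a protein-coding gene on the same strand. For scale, the amino acid carriers outside this set had 278 RPM (SLC38A1), 209 RPM (SLC7A1), 135 RPM (SLC7A5) and 73.8 RPM (SLC1A5). By summed RPM 3 of these 4 exceeded every member, but their levels were not compared per length.

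Sugar carriers had 2 members. SLC5A2, the renal sodium-glucose cotransporter, had 14.8 RPM (11.1 to 19.1) and 55.5 fragments in the control and 0 in both deprived libraries. Its 1 region was equally listed under RUSF1, a gene on the opposite strand whose end overlaps that of SLC5A2, and no region was listed under SLC5A2 alone. SLC37A3, of the sugar phosphate exchanger family, had 6.21 RPM (3.86 to 9.13) in 1 region. Its 23 control fragments are therefore the only ones in these rows that stand under a sugar carrier alone.

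Mitochondrial carriers had 6 members and 143 RPM, between 13.6 and 44.4 RPM each. SLC25A5, the ADP/ATP translocase that exports ATP from mitochondria, had 44.4 RPM (37.6 to 51.2) from 3 regions of 10.7, 11.9 and 21.8 RPM (chrX:119468400-119471319, plus strand). SLC25A3, the phosphate carrier, had 33.2 RPM (27.2 to 38.9) from 4 regions. SLC25A23, a calcium-regulated carrier of ATP-magnesium and phosphate, had 19.7 RPM, SLC25A36, a pyrimidine nucleotide carrier, 15.1 RPM, and SLC25A39 13.6 RPM. These 5 had no shared region. SLC25A51, the mitochondrial NAD carrier, had 16.8 RPM in 1 region that also stood under the read-through gene AL138752.2 and under TMX2P1, a processed pseudogene of the thioredoxin-related gene TMX2 in one of its introns. TMX2P1 matched TMX2 at 97.5% of 708 aligned bases, and TMX2 itself had 6.08 RPM in the control. A close paralog, SLC25A52, was identical to SLC25A51 at 96.9% of 1144 aligned bases.

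Among monocarboxylate carriers, SLC16A1, the lactate and pyruvate transporter MCT1, had 63.1 RPM (54.7 to 70.9) in the control from 236 fragments and 0 fragments in both deprived libraries. Its level was the highest among members with no shared region. It came from 5 regions of 3.57, 5.69, 5.95, 9.65 and 38.2 RPM, so most of it came from a single region (chr1:112911847-112957013, minus strand, for the gene). BSG, the chaperone that takes SLC16A1 to the plasma membrane, had 78.3 RPM in the control, 2 fragments without glucose and 0 without glutamine.

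The SLC35 family of nucleotide sugar carriers and related genes had 7 members and the largest sum, 198 RPM, but most of it was shared. Without shared regions its part of the members' sum fell from 21.98% to 7.18%. SLC35F1 had 84.9 RPM (75.7 to 94.6) from 320.5 fragments in its 1 region, and none of it stood under SLC35F1 alone (gene at chr6:117907526-118317676, plus strand; pseudogene at chr6:117998975-117999448). RPL29 had 54.7 RPM in the control and 0 fragments in both deprived libraries. SLC35F2 had 61.2 RPM (53.3 to 69.3), of which 55.8 RPM was the region shared with AP001024.1 and 5.42 RPM its own (gene at chr11:107790991-107928293, minus strand; pseudogene at chr11:107908420-107908764). RPLP2 had 10.4 RPM. The others were SLC35B4 at 21.3 RPM, SLC35F5 at 9.39, SLC35A4 at 7.80, SLC35E1 at 7.54 and SLC35F6 at 5.95 RPM, and the regions of SLC35A4 and SLC35E1 were shared with overlapping genes.

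**Figure D3:**
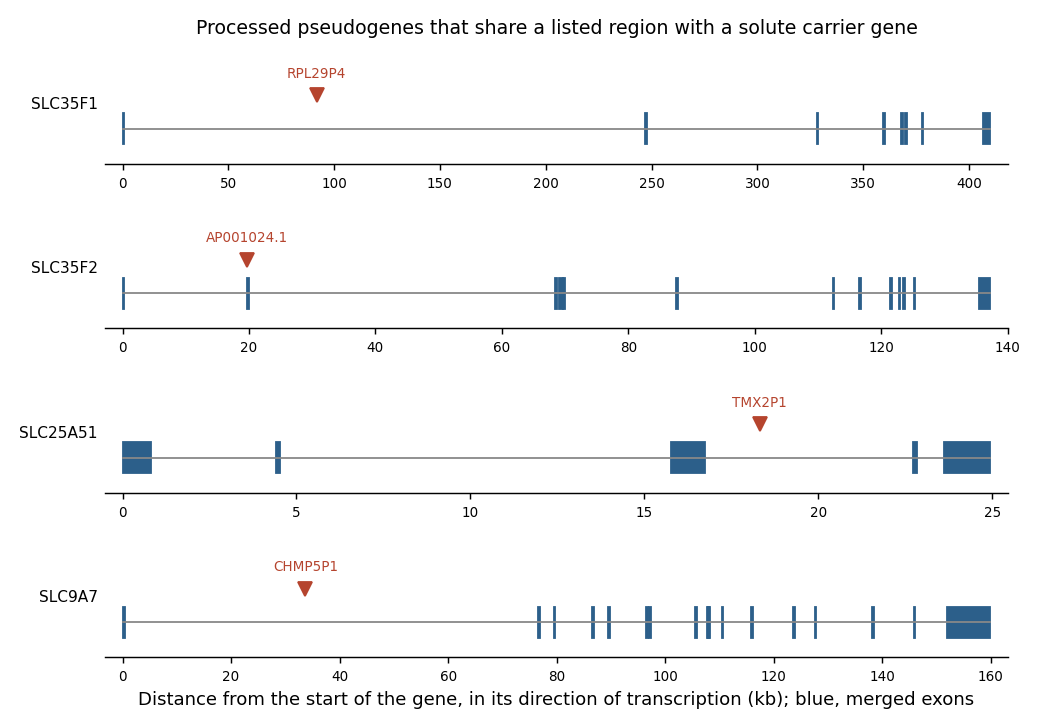
Position of 4 processed pseudogenes (triangles) whose listed region was also listed under the SLC gene that holds them, in kb from the start of the SLC gene along its direction of transcription; blue boxes are merged exons. The pseudogenes lie in introns of SLC35F1, SLC25A51 and SLC9A7, and at an exon of SLC35F2.

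Metal carriers had 7 members and 156 RPM. SLC39A7, which releases zinc from the endoplasmic reticulum, had 43.2 RPM (36.4 to 49.8) from 4 regions, none shared (chr6:33200445-33204439, plus strand). SLC39A6, a zinc importer, had 32.7 RPM (26.8 to 38.5) from 3 rows, of which 2 held equal values, and 19.7 RPM (5.35 RPM per kb) with equal rows counted once. SLC39A1, another zinc importer, had 30.8 RPM (25.3 to 36.8) in 1 region that also stood under AL358472.7, an overlapping protein-coding gene on the same strand. SLC39A14, a zinc, iron and manganese transporter, had 18.9 RPM and SLC31A1, the copper importer, 13.7 RPM. The zinc carriers SLC30A9 and SLC30A5 had 11.4 and 4.89 RPM, and SLC30A9, whose 2 rows held equal values, had 5.69 RPM with these counted once.

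Carriers of inorganic ions had 5 members and 76.5 RPM. SLC4A2, the chloride and bicarbonate exchanger, had 35.04 RPM (28.7 to 40.8) from 5 regions, of which 24.5% was shared with an antisense gene. SLC20A1, a sodium-phosphate cotransporter, had 19.6 RPM. SLC9A7, a Golgi sodium-proton exchanger, had 11.5 RPM, all in a region shared with the intronic pseudogene CHMP5P1. SLC4A1AP had 5.16 RPM. It takes its symbol from its binding to a carrier and is known as an adaptor protein, not a transporter, and its pseudogene SLC4A1APP1, 98.7% identical over 603 bases, was listed at 8.33 RPM in a region that stood also under another gene.

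Vitamin and cofactor carriers had 3 members and 46.7 RPM. SLC23A1, a sodium-dependent vitamin C transporter, had 24.7 RPM from 2 regions, both also listed under PAIP2, a regulator of translation on the opposite strand. Both stood also under AC135457.1, a gene typed as antisense in GENCODE that lies on the same strand as SLC23A1. Its relative SLC23A2 had 5.82 RPM in a region of its own. SLC33A1, which brings acetyl-CoA into the endoplasmic reticulum, had 16.1 RPM in regions shared with AC104472.3. The only choline carrier was SLC44A2 at 5.55 RPM.

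**Figure D4:**
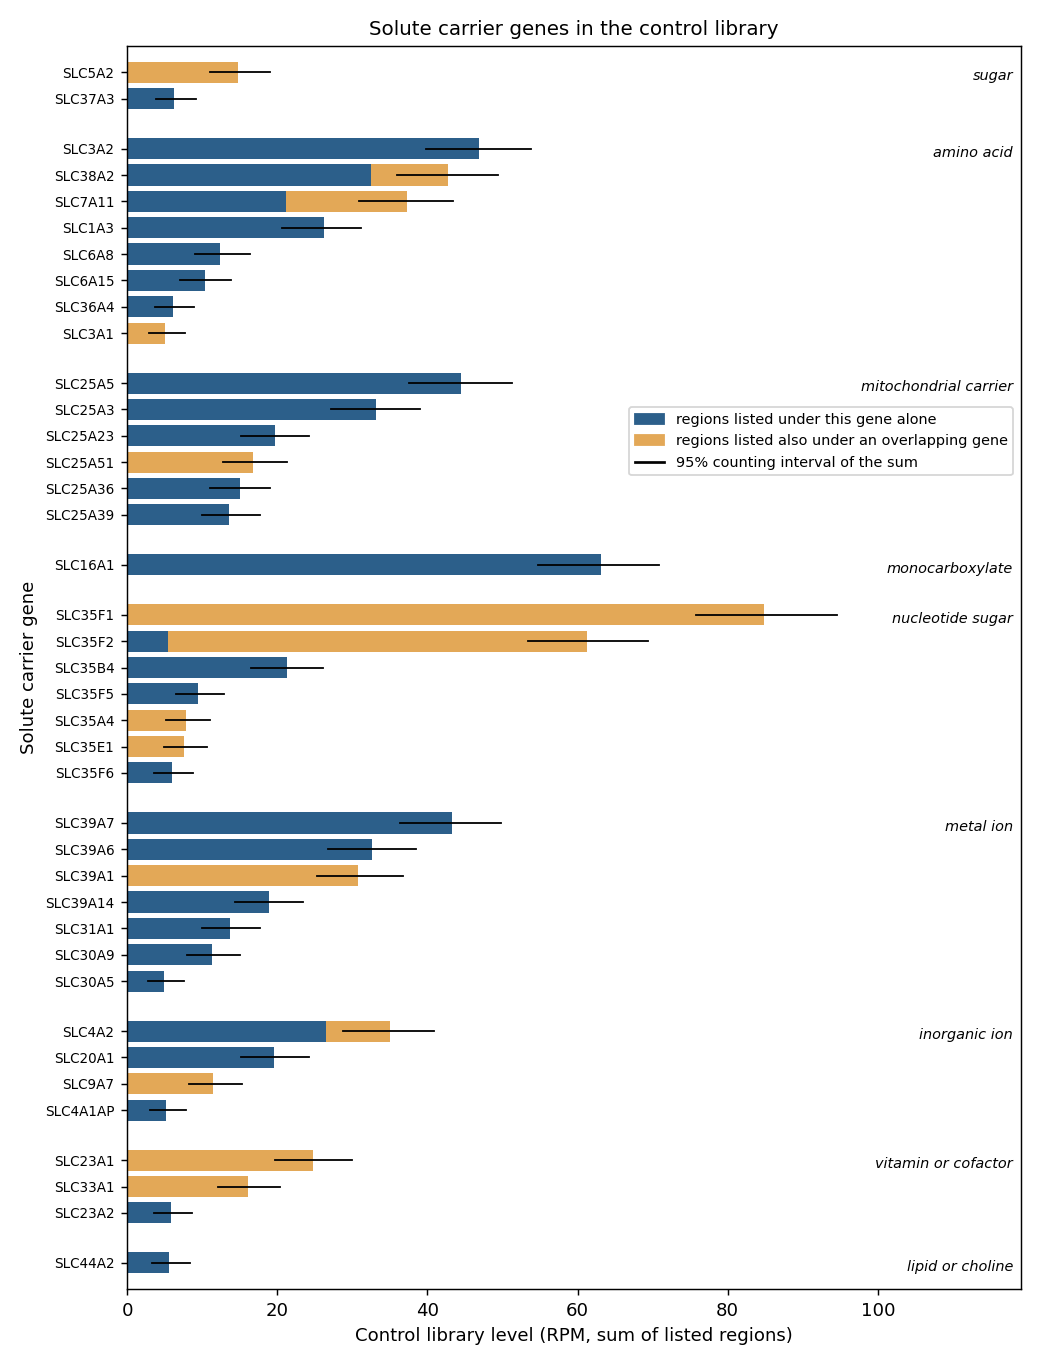
Control level of 39 of the 41 SLC genes in RPM, by substrate class. Blue is the part in regions listed under that gene alone, orange the part also listed under an overlapping gene, and black lines are 95% counting intervals. The longest bar, SLC35F1 at 84.9 RPM, is all orange, and SLC16A1 at 63.1 RPM is the longest all-blue bar.

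Sharing was common among these genes, and about as common among all protein-coding genes. All regions were shared for 11 of the 41 members (26.8%, against 21.1% of all listed protein-coding genes), some for 4 and none for 26. Over regions, 18 of 86 were shared (20.9%, against 19.6%), and these held 35.1% of the members' control RPM (against 32.6%). Without SLC35F1 and SLC35F2 that share was 23.2%. A processed pseudogene was the partner for 4 members (9.76%, against 4.46% of all listed protein-coding genes). Of the 10 members highest by RPM, 5 had a shared region. A copy at 95% identity or more over at least 150 bases was found in other GENCODE transcripts for 5 members: SLC25A51, SLC33A1, SLC31A1, SLC6A8 and SLC4A1AP. How the deposited values treated reads that map to several places is not given, so levels of at least these 5 genes are uncertain. Copies below those limits were not counted, so the other members are not shown to be free of this.

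Per length, SLC25A5 stood first. Levels between genes were compared as RPM per kb of merged exons, since the lengths ran from 1500 to 10588 bases. SLC25A5 had 29.6 RPM per kb (25.1 to 34.2), with SLC35F1 at 17.5 (15.6 to 19.5), SLC35F2 at 16.5, SLC39A7 at 15.2 (12.8 to 17.5) and SLC16A1 at 11.9 RPM per kb (10.3 to 13.3) next. Then came SLC39A1 at 9.09, SLC3A2 at 9.06, SLC39A6 at 8.87, SLC23A1 at 7.72 and SLC38A2 at 6.47 RPM per kb. SLC25A51 at 4.94 and SLC4A2 at 4.62 RPM per kb completed the first 12. The values of SLC35F1 and SLC25A51 rest on 1 region each, which stood also under a pseudogene in an intron. Of the SLC35F2 value, 91.1% stood also under a pseudogene. Dividing these 3 values by exon length therefore need not give a level of the SLC RNA. The median member had 2.72 RPM per kb. Of the 40 pairs of neighbours in this order, the counting intervals were apart for 1, SLC25A5 and SLC35F1, and overlapped for 39. With regions of their own only, SLC25A5, SLC39A7, SLC16A1, SLC3A2 and SLC39A6 were the first 5, in that order, and SLC35F2 fell to 1.46 RPM per kb.

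**Figure D5:**
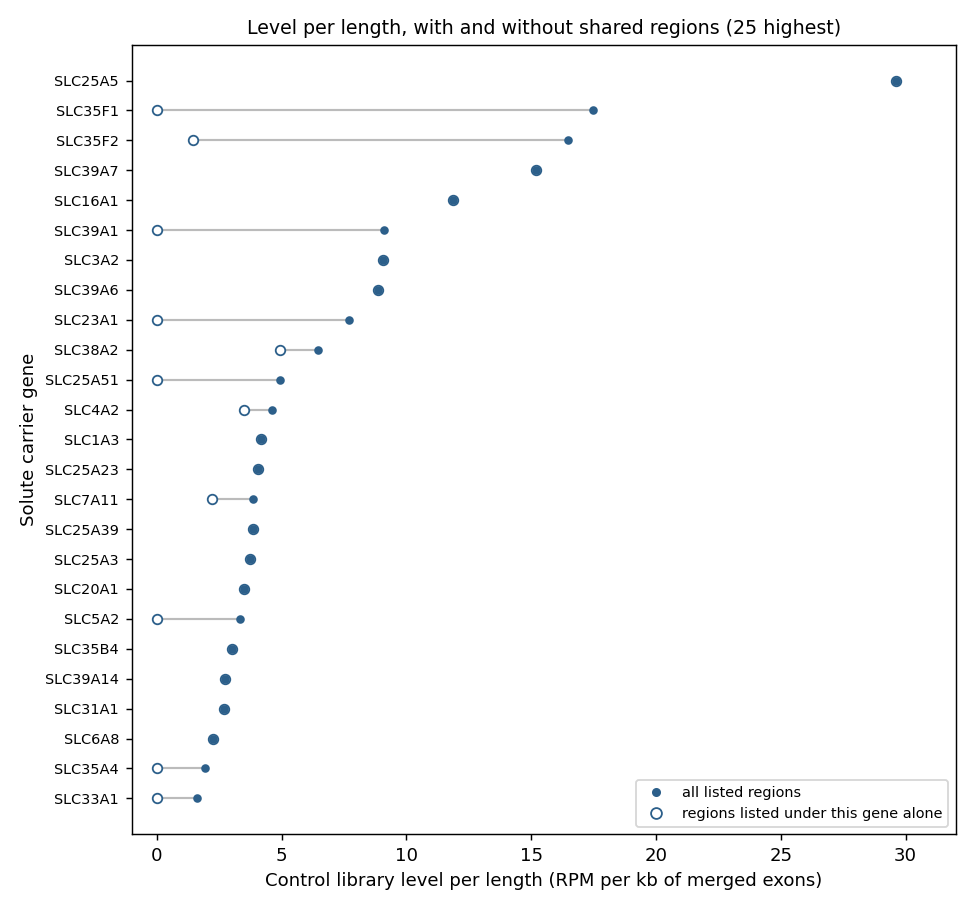
Control level per length, in RPM per kb of merged exons, for the 25 members highest on that measure. Filled points count all listed regions and open points only regions listed under that gene alone. SLC25A5 is first on both at 29.6 RPM per kb, while SLC35F1, SLC39A1, SLC23A1, SLC25A51, SLC5A2, SLC35A4 and SLC33A1 drop to 0.

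Of the V-type proton pump subunits 10 of 27 annotated genes were listed, of the P-type ATPases 9 of 38, of the ABC transporters 3 of 41, of the MFSD family 4 of 18 and of the SLCO family 0 of 13. The list of chaperones and partners of carriers had 3 of 6 listed, and that of mitochondrial carriers without an SLC symbol 2 of 7 (MTCH1 at 24.3 and MTCH2 at 10.3 RPM). All listed genes of these sets were called lower in both deprived libraries, as were 99.9% of all tested genes. ATP2A2, the calcium pump of the endoplasmic reticulum, had 60.8 RPM in the control and 0 fragments in the glucose-deficient library. Among proton pump genes the highest, at 199 RPM, was the read-through gene ATP6V1G2-DDX39B, which had 4 of its 6 regions shared, and ATP6V0C followed at 55.3 RPM with both regions shared. Of the SLC partners, LAPTM4B and LAPTM4A, lysosomal membrane proteins, had 24.3 and 8.59 RPM. None of the genes of these sets had a fragment in the glutamine-deficient library.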

How the data were processed

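The deposited values are RPM per region, per the file headers. The submitters' processing notes name HISAT2 2.0.5 and hg38; for the annotation, region calling, strand use and multiply mapped reads, nothing is given in the sources used here. Values rose in steps of 0.264, 0.0533 and 0.0546 RPM per fragment (control, glucose-deficient, glutamine-deficient) above an offset of 0.5 fragment per region; after rounding to the nearest 0.5 fragment, 63.3%, 99.97% and 99.98% of values were whole, and no value under 1000 RPM lay over 0.00324 fragment from a step. The offset is part of printed levels and folds, but not of intervals, which are of fragments. A gene is the sum of its regions; calls were made at a 2-fold difference of RPM + 1, among genes that reached 1 RPM in a library compared. Level intervals are Poisson, ratio intervals exact conditional binomial, at 95%. Rows that name no gene (691 per block, of 14338 and 14333) were not used. Because the labels point both deprived samples to the glucose column, the column header and the sample's own file identified the glutamine values. Of 5932 gene identifiers, 5796 matched GENCODE release 29, the source of coordinates. Named members are the 12 highest by RPM and by RPM per kb, up to 4 per class, those with 3 or more regions and those with 2 or more fragments in a deprived library (there were none); up to 3 genes per other transport list are named. Other members were named after their values were seen. Members and lists were chosen with earlier results of these data known. Copies were sought with blastn 2.17.0. Python 3.11.15, numpy 2.4.6, pandas 2.3.3, scipy 1.17.1 and matplotlib 3.10.9 were used. Tested on simulated data for the glucose-deficient comparison (5932 genes, 200 changed 4-fold), the steps recovered 100% of changed genes in each direction and called 0.0872% of the others. The simulation kept the control's proportions at the full depth of that library, without the share that ATF4 takes in the real one. It therefore does not show how calls fare at the real depth outside ATF4. Values of some genes that the rule would name are not reported here.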

Additional observations from a re-analysis of the deposited data

How the results depend on the processing

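With 1 library per condition nothing here has a replicate check, and depth outside ATF4 limits every comparison. Counts of 41 lower and 0 higher members in each deprived library were the same with a pseudocount of 0.1 RPM, no filter, the offset off, the single highest region of a gene, or the whole counting interval beyond 2-fold. A pseudocount of 5 RPM gave 38 lower and a filter of 5 RPM 39, in both comparisons. Scaling by totals without ATF4 and its pseudogenes turned the direction: 1 member lower and 38 higher in both comparisons, with median log2 ratios of 2.19 (glucose) and 2.06 (glutamine), beside 2.20 and 1.997 over all genes, of which 87.8% and 84% were then higher and 1.67% and 2.43% lower. Leaving out mitochondrial and the most abundant genes too gave 1 lower and 38 higher (median 2.16) for glucose and 1 lower and 37 higher (median 1.997) for glutamine. These higher calls come from the offset, since 40 of 41 members had 0 fragments there: with the offset off as well, an alternative chosen after seeing the data, 40 members were lower and 1 higher in each comparison. Between the deprived libraries 1 member was lower under all 3 of these scalings and 1 higher with the offset off. The summed control level of 901 RPM was 583 RPM with the highest region of each gene and 585 RPM without shared regions; the latter choice, like counting equal rows once (877 RPM), was made after seeing the data. Without shared regions 30 members had a value and all 30 were lower in both comparisons. With the highest region of each gene, 0 members had a fragment without glucose, since that of SLC35B4 lay in another region. No paired analysis was possible because each group has 1 library.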
